A study of Rattus norvegicus with 36 samples.

Results

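The miR-17, miR-20, miR-93 and miR-106b family is a set of microRNAs (miRNAs) whose 5p arms begin with the same bases. Its members were the rows of the deposited count table named rno-miR-17, rno-miR-20a, rno-miR-20b, rno-miR-93 or rno-miR-106b, with any copy number and arm, which gave 11 of the 723 mature rat miRNAs in the table: 5 from the 5p arm of their hairpin and 6 from the 3p arm. They were measured by small RNA sequencing in 36 libraries, 1 for each of 3 brain regions of 12 male rats: the nucleus accumbens (NAc) and, from the prefrontal cortex, the prelimbic (PL) and infralimbic (IL) areas. The rats were outbred heterogeneous stock (HS) animals with no transgene, 4 per group. Naïve rats received no cocaine. Withdrawal and abstinence rats had learned to take cocaine by intravenous self-administration and then had long daily access, over which intake escalated; withdrawal rats were killed hours after the last session (16 h in the labels, 18 h in the study's methods) and abstinence rats after 4 weeks without the drug. Cocaine exposure, surgery and training therefore came together in both treated groups and cannot be told apart, and each library was 1 region of 1 animal.

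Libraries held 6192155 to 18877136 counts (median 10739453.5), with an RNA integrity number (RIN) of 7.4 to 9.3. The 4 PL libraries of withdrawal rats (11372613 to 18877136 counts) were all deeper than the 4 of naïve rats (7517269 to 9911807), so that depth and group cannot be told apart in that comparison. Of the marker miRNAs, the neuronal miR-124-3p, miR-9a-5p and miR-128-3p were detected in all 36 libraries, while the red blood cell miR-144-3p was at 0 in 34 of 36 and miR-144-5p in 30 of 36. miR-451-5p, also of red blood cells, was at 0 in only 2 of 36, with a median of 1.08 CPM in the NAc and 0.207 in the IL (CPM are counts per 1e+06 counts of the library, its size scaled with the trimmed mean of M-values, TMM).

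A miRNA is cut from a hairpin whose arms, 5p and 3p, can each be loaded into an Argonaute protein, and it then represses mRNAs that pair with its seed, bases 2 to 8. The members come from 3 related hairpin clusters, miR-17-92, miR-106a-363 and miR-106b-25; the first is known for promoting proliferation and neural progenitor growth, and the mRNA for the cell cycle inhibitor p21 is a well known target of the family. All 11 members matched the RefSeq miRNA table of the rat assembly GRCr8 by name. The mature sequences of the 8 members that carry the results are shown to compare their seeds, in capitals, and the bases by which reads are assigned to one member or another.
rno-miR-17-5p: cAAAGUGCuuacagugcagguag
rno-miR-20a-5p: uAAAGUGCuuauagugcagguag
rno-miR-20b-5p: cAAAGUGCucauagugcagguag
rno-miR-93-5p: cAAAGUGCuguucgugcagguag
rno-miR-106b-5p: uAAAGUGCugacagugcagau
rno-miR-106b-3p: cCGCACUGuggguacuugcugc
rno-miR-93-3p: aCUGCUGAgcuagcacuucccga
rno-miR-17-1-3p: aCUGCAGUgaaggcacuugugg

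The 5 members from the 5p arm shared the seed AAAGUGC, and none of the other miRNAs of the table that matched RefSeq (645 of 723 matched in all) held it at bases 2 to 8. The 3p arms shown had 3 different seeds. Outside the seed the 5p members were close: miR-17-5p and miR-20a-5p differed at 2 of 23 positions, and the most distant pair, miR-106b-5p and miR-93-5p, at 5 of 21, so a read with errors could have been counted to another member. The levels of single 5p members are uncertain to that degree.

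In GRCr8, miR-106b-5p lies at chr12:22157103-22157123 and miR-93-5p at chr12:22156894-22156916, both on the minus strand inside Mcm7, a gene for a subunit of the replicative helicase, next to the hairpin of miR-25. The hairpins of miR-17 (chr15:98587848-98587931) and miR-20a (chr15:98588303-98588387) lie on the plus strand with those of miR-18a, miR-19a, miR-19b-1 and miR-92a-1. The mature miR-17-5p is encoded a second time on the minus strand of the X chromosome, at chrX:137343615-137343637 in the hairpin annotated as Mir106a, near miR-20b, so its counts cannot be given to one locus.

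Among the 5p members that share the seed, counts came mainly from miR-93-5p. The 5 members with the shared seed summed to a median of 158 CPM over the 36 libraries (96.3 to 250). miR-93-5p made up a median of 72.0% of that sum (58.1% to 86.5%), miR-17-5p 14.1%, miR-20a-5p 9.99%, miR-106b-5p 2.56% and miR-20b-5p 0.0812%. By mean level, miR-17-5p ranked 247 among the 457 miRNAs that passed the low-count filter, miR-20a-5p 263 and miR-106b-5p 336. miR-93-5p had a mean of 6.83 log2 CPM, and the most abundant row of the family was miR-106b-3p, with 7.64 and rank 130.

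The filter kept 7 of the 11 members. miR-20b-5p (72 counts over all libraries, at most 8 in 1), miR-20b-3p (29), miR-17-2-3p (28) and miR-20a-3p (2 counts, both in 1 library) were too low to test. The X chromosome hairpins were thus represented in the tests only through miR-17-5p, which they share with chromosome 15. Depth was also thin for some kept members: miR-17-1-3p had 4 to 26 counts per library, and miR-106b-5p had 12 to 43 in the IL.

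**Figure D1:**
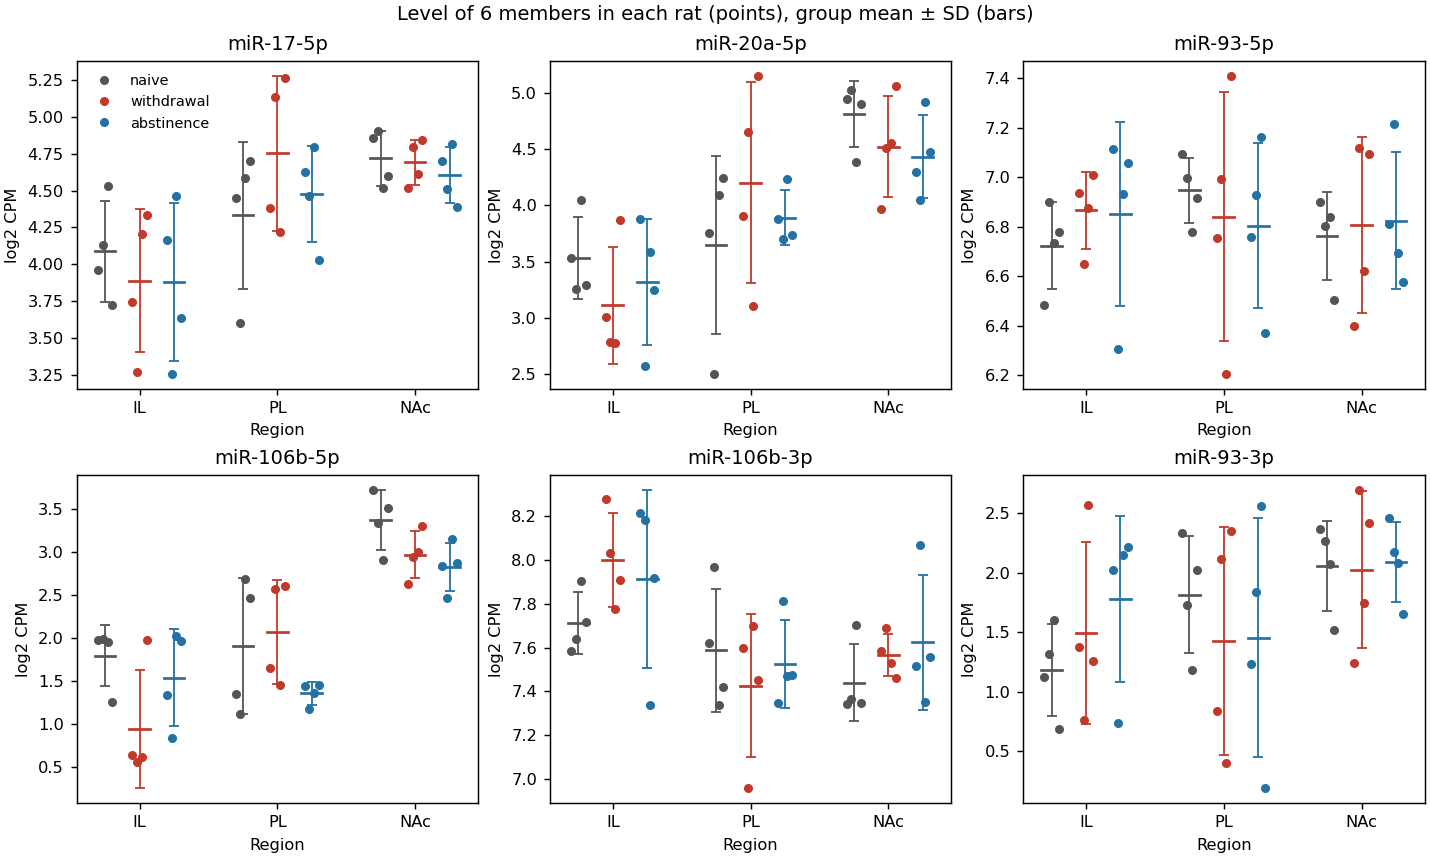
Level (log2 CPM, vertical axes with a separate scale for each miRNA) of 6 members in the IL, PL and NAc (horizontal axes) of naïve, withdrawal and abstinence rats; points are rats, horizontal bars the mean and error bars the SD of 4 rats. miR-106b-5p sits highest in the NAc, where all 12 rats lie between 2.47 and 3.72, whereas miR-93-5p spans 6.21 to 7.41 with no separation of regions.

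The first question was whether the family differed between groups within a region. By the study's rule, a fold-change of at least 1.5 and an unadjusted p under 0.05, edgeR called none of the 7 members in any of the 9 comparisons, and none had an unadjusted p under 0.05. Over all 457 miRNAs the rule called 6.35% for withdrawal vs. naïve in the IL, 4.81% in the PL and 2.84% in the NAc. For abstinence vs. naïve it called 8.32% in the IL, 2.41% in the PL and 1.09% in the NAc, and for abstinence vs. withdrawal 6.35%, 3.5% and 0.875%. DESeq2 also called no member, and limma-voom, the kind of model the study used, called miR-106b-5p in 2 comparisons given below. The study itself listed miR-106b-5p as differentially expressed by its rule in the same 2 comparisons, both in the IL. Its filter left fewer miRNAs to test than the 457 here, so the fits were not the same. At the shares given, which are those of the main fit, a count of 0 of 7 is near the background. Shares of all miRNAs called under other settings, or with a rat left out, are not given. Calls under those settings, here and below, cannot be read as particular to the members.

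The members' log2FC ran from -0.64 to 0.82 over the 63 tests, their lowest adjusted p was 0.451, and in none of the 63 did the 4 rats of one group lie wholly above or below the 4 of the other. Over all 457 miRNAs, 0.219% to 7.44% were so separated, depending on the comparison. The lowest exact permutation p (two-sided, n = 4 each) was 0.0571, and a design of 4 against 4 cannot go below 0.0286. The medians over the 7 members were 0.11, 0.08 and 0.04 for withdrawal vs. naïve in the IL, PL and NAc, beside -0.02, -0.0013 and 0.0086 over all miRNAs tested. For abstinence vs. naïve they were 0.08, -0.16 and 0.03, beside 0.02, -0.09 and 0.02.

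miR-93-5p, the most abundant of the 5p members, varied least of the 4 main ones: its log2FC lay between -0.16 and 0.12 in the 9 comparisons. Group means ran from 6.72 ± 0.17 log2 CPM (SD, n = 4) in the IL of naïve rats to 6.95 ± 0.13 in the PL of naïve rats. The SD within single groups ran from 0.13 in the PL of naïve rats to 0.50 in the PL of withdrawal rats. The less abundant arm miR-93-3p had a log2FC of 0.68 for abstinence vs. naïve in the IL (standard error 0.48, adjusted p = 0.552 from edgeR).

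**Figure D2:**
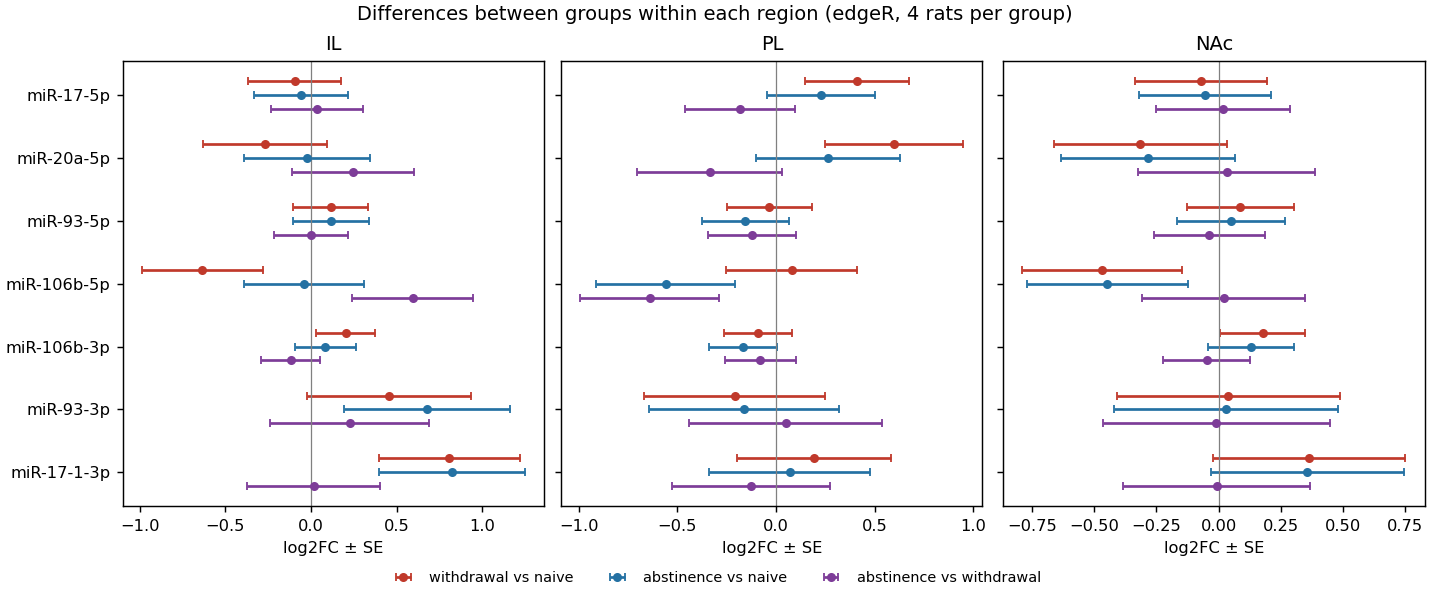
Differences between groups (log2FC ± SE from edgeR, horizontal axes with a separate scale for each region) of the 7 tested members (vertical axis) in the IL, PL and NAc, 4 rats per group. miR-93-5p stays between -0.16 and 0.12, and miR-106b-5p has the lowest value of the 7 in 5 of the 9 comparisons, down to -0.64 in the PL.

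miR-106b-5p, which shares its hairpin with the abundant miR-106b-3p, had the largest log2FC of the 4 main 5p members in the IL. Its level was 1.97, 1.98, 1.95 and 1.26 log2 CPM in the 4 naïve rats, 0.64, 0.55, 0.61 and 1.97 in the 4 withdrawal rats, and 1.33, 0.84, 2.02 and 1.96 in the 4 abstinence rats. Withdrawal rats 1 to 3 lay below every other rat, and withdrawal rat 4 lay with the naïve rats, so that the groups overlapped. Against naïve rats the log2FC at withdrawal was -0.63 (standard error 0.35, adjusted p = 0.489 from edgeR; exact permutation p = 0.0857). limma-voom gave -0.74 (adjusted p = 0.512), a call by the study's rule, which takes the unadjusted p. Calls were also made when RIN was left out of the model (-0.76, adjusted p = 0.338) and when withdrawal rat 4 was left out (-1.10, adjusted p = 0.296). In the IL the endothelial miR-126a-3p and miR-126a-5p summed to 1544 to 3063 CPM in naïve rats (median 2291). They summed to 957 to 2020 in withdrawal rats (median 1136) and 816 to 2001 in abstinence rats (median 1128). Medians in the same order of groups were 335458, 257088 and 226815 CPM for the 3 neuronal miRNAs and 721, 598 and 853 for 4 immune miRNAs. For 6 choroid plexus and ciliated cell miRNAs they were 1411, 1462 and 1385. The oligodendrocyte miR-338-3p had 6.41, 4.62 and 6.66, and 3 blood miRNAs had 0.40, 0.12 and 0.42. The endothelial, neuronal, immune and choroid plexus sums were each mainly of 1 miRNA. Over all IL libraries, miR-126a-3p had a median of 1418 CPM beside 1420 for its sum, and miR-128-3p 264493 beside 292256. In the same libraries miR-150-5p had 692 beside 693, and miR-204-5p 1319 beside 1410. The part of any of these cell types in the IL differences was not tested.

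From withdrawal to abstinence miR-106b-5p had a log2FC of 0.59 in the IL (standard error 0.35, adjusted p = 0.707) and of -0.64 in the PL (standard error 0.35, adjusted p = 1). The IL difference passed the rule by limma-voom (0.70, adjusted p = 0.651) and without withdrawal rat 4 (1.05, adjusted p = 0.354). In the PL it was at 1.65, 2.57, 1.44 and 2.60 log2 CPM in withdrawal rats and at 1.44, 1.16, 1.35 and 1.45 in abstinence rats. The abstinence rats were all low and close together, and withdrawal rats 2 and 4 stood above them. The PL difference passed the rule without RIN (-0.82, adjusted p = 0.781), without withdrawal rat 1 (-0.78, adjusted p = 0.986) and without withdrawal rat 3 (-0.81, adjusted p = 0.983). Against naïve rats, abstinence in the PL gave -0.56 (standard error 0.35, adjusted p = 0.875), and among the rats left out in turn it was a call without naïve rat 2.

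In the NAc miR-106b-5p was at 3.72, 3.34, 2.90 and 3.51 log2 CPM in naïve rats, 2.63, 2.94, 2.998 and 3.30 in withdrawal rats and 2.83, 2.47, 3.15 and 2.87 in abstinence rats. The naïve rats tended to the top of each range and overlapped both other groups. The log2FC was -0.47 at withdrawal (standard error 0.32, adjusted p = 0.84) and -0.45 at abstinence (standard error 0.32, adjusted p = 0.887), a call in neither.

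The GC content of miRNAs moved with group in the same libraries. The slope of log2 CPM on GC content, per 10% of GC, was 0.30 to 0.62 in the 4 IL libraries of withdrawal rats and 0.05 to 0.29 in the 4 of naïve rats, without overlap. miR-106b-5p has a GC content of 42.9%. After a correction for GC in each library, its log2FC at withdrawal in the IL was -0.49 (adjusted p = 0.614). In the NAc the slope was -0.88 to -0.34 in naïve, -0.55 to -0.22 in withdrawal and -0.57 to 0.20 in abstinence rats. There the corrected log2FC of miR-106b-5p was -0.28 at withdrawal and -0.27 at abstinence (adjusted p = 0.998 and 0.999). In the PL the slope was -0.18 to 0.04 in withdrawal and 0.06 to 0.25 in abstinence rats, without overlap. From withdrawal to abstinence, the corrected log2FC of miR-106b-5p was -0.47 in the PL and 0.50 in the IL, a call in neither. The part of GC in these differences was not tested further.

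miR-20a-5p and miR-17-5p, neighbours on chromosome 15, were highest in the PL in the same 2 withdrawal rats. miR-20a-5p was at 3.91, 4.65, 3.10 and 5.15 log2 CPM in withdrawal rats and at 3.76, 2.50, 4.09 and 4.24 in naïve rats. miR-17-5p was at 4.38, 5.14, 4.22 and 5.26 in withdrawal and at 4.45, 3.60, 4.58 and 4.70 in naïve rats. Withdrawal rats 2 and 4 exceeded all naïve rats for both miRNAs, and withdrawal rats 1 and 3 did not. The log2FC was 0.60 for miR-20a-5p (standard error 0.35) and 0.41 for miR-17-5p (standard error 0.26), with an adjusted p of 0.624 for both. The GC slope was -0.18 to 0.04 in these 4 PL libraries of withdrawal rats and -0.08 to 0.55 in those of naïve rats, and after the GC correction the log2FC was 0.32 for miR-20a-5p (adjusted p = 0.801) and 0.33 for miR-17-5p (adjusted p = 0.775). With 1 rat left out in turn it ran from 0.21 to 0.87 for miR-20a-5p and from 0.21 to 0.58 for miR-17-5p. Without withdrawal rat 3, miR-20a-5p passed the rule at 0.87 (adjusted p = 0.583), and without naïve rat 4 at 0.84 (adjusted p = 0.399).

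miR-17-1-3p, the 3p arm of the chromosome 15 hairpin, had the highest log2FC of the members in the IL: 0.81 at withdrawal (standard error 0.41, adjusted p = 0.489) and 0.82 at abstinence (standard error 0.43, adjusted p = 0.451). It was at 0.38, -0.56, -0.38 and -0.82 log2 CPM in naïve rats, 0.40, 0.30, -0.44 and 1.11 in withdrawal rats and 0.36, 0.84, 0.0012 and 0.32 in abstinence rats. Naïve rat 1 reached the levels of the treated rats, and without it the log2FC passed the rule, at 1.10 for withdrawal (adjusted p = 0.651) and 1.13 for abstinence (adjusted p = 0.524). Withdrawal rat 3 lay within the naïve range, and without it withdrawal passed at 1.04 (adjusted p = 0.479). These values rest on 4 to 18 counts per library.

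The second question was whether the family differed between regions of the same rats. edgeR was fitted with the rat as a block and RIN as a covariate, and a miRNA was called at an adjusted p under 0.05. Regions differed widely in these libraries: 76.4% of all 457 miRNAs were called for NAc vs. IL, 67.4% for NAc vs. PL and 38.1% for IL vs. PL. Of the 7 members, 4 were called for NAc vs. IL, 2 for NAc vs. PL and 3 for IL vs. PL, so the members were called no more often than the table as a whole except by a small margin for IL vs. PL. Region is dissected tissue, in which fewer cells of a type and less RNA per cell cannot be told apart.

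miR-106b-5p was the member that differed most, and it was higher in the NAc than in the IL and the PL in 12 of 12 rats. Its lowest, median and highest levels were 2.47, 2.97 and 3.72 log2 CPM in the NAc, 1.11, 1.45 and 2.69 in the PL, and 0.55, 1.64 and 2.02 in the IL. The lowest NAc library thus lay above the highest IL library. The log2FC was 1.57 for NAc vs. IL (standard error 0.19, adjusted p = 4.03e-08) and 1.16 for NAc vs. PL (standard error 0.19, adjusted p = 7.72e-06), with an exact sign-flip permutation p of 0.000488 for both, the smallest that 12 rats allow. For IL vs. PL it was -0.41 (standard error 0.20, adjusted p = 0.0981).

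miR-20a-5p was also highest in the NAc, and its median in the PL lay above that in the IL. It had a lowest, median and highest level of 3.97, 4.53 and 5.06 log2 CPM in the NAc, 2.50, 3.90 and 5.15 in the PL and 2.58, 3.28 and 4.04 in the IL. Levels in the PL overlapped those of both other regions. The log2FC was 1.26 for NAc vs. IL (standard error 0.18, adjusted p = 6.43e-07, higher in 12 of 12 rats), 0.60 for NAc vs. PL (standard error 0.18, adjusted p = 0.00541, higher in 10 of 12) and -0.66 for IL vs. PL (standard error 0.18, adjusted p = 0.00882, higher in the IL in 1 of 12).

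miR-17-5p was lowest in the IL. Its lowest, median and highest levels there were 3.26, 4.05 and 4.53 log2 CPM. In the PL they were 3.60, 4.52 and 5.26, and in the NAc 4.39, 4.66 and 4.90, where the spread between rats was smallest (SD 0.17, n = 12). The log2FC was 0.69 for NAc vs. IL (standard error 0.14, adjusted p = 0.000114, higher in 11 of 12 rats) and -0.59 for IL vs. PL (standard error 0.15, adjusted p = 0.00558, higher in the IL in 1 of 12). NAc vs. PL was not a call (0.10, standard error 0.15, adjusted p = 0.583).

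miR-93-5p did not pass the test in any pair of regions, with log2FC of -0.02, -0.04 and -0.02 for NAc vs. IL, NAc vs. PL and IL vs. PL (standard errors 0.12). The abundant miR-106b-3p differed in the opposite direction from its 5p partner for NAc vs. IL and IL vs. PL, the latter not a call for the 5p arm. Its median was 7.91 log2 CPM in the IL, 7.47 in the PL and 7.52 in the NAc. Its log2FC was -0.32 for NAc vs. IL (standard error 0.10, adjusted p = 0.00458, higher in the NAc in 1 of 12 rats) and 0.37 for IL vs. PL (standard error 0.10, adjusted p = 0.0076, higher in the IL in 9 of 12). For NAc vs. PL it was 0.05 (standard error 0.10, adjusted p = 0.68).

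**Figure D3:**
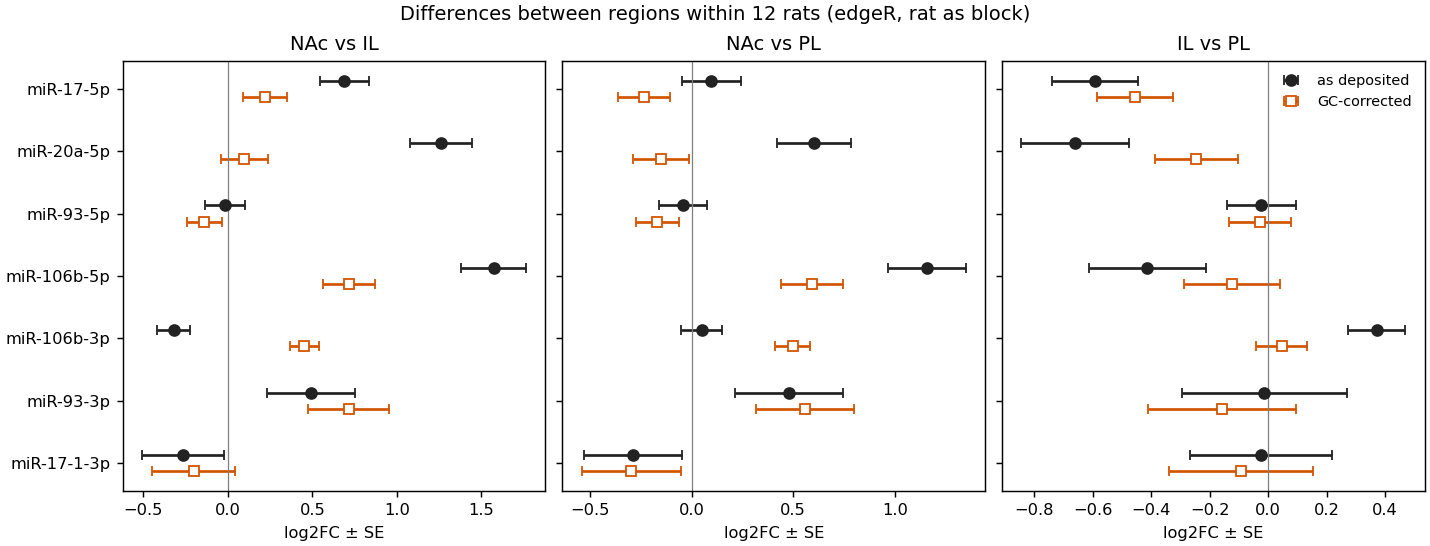
Differences between regions within the 12 rats (log2FC ± SE from edgeR with the rat as a block, horizontal axes with a separate scale for each pair) for the 7 tested members, as deposited (filled circles) and after a GC correction of each library (open squares). For NAc vs. IL miR-20a-5p moves from 1.26 to 0.10 and miR-106b-3p from -0.32 to 0.45.

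GC content moved with region as well. Over the 411 tested miRNAs with a RefSeq sequence, the log2FC for NAc vs. IL had a Pearson r of -0.58 with GC content (a description across miRNAs of the same libraries), with a median of 1.51 in the 116 miRNAs of at most 45% GC and of -0.76 in the 118 of at least 55%. Of the members, miR-20a-5p has 39.1% GC, miR-106b-5p 42.9%, miR-17-5p 47.8%, miR-93-5p 52.2%, miR-17-1-3p 54.5%, miR-93-3p 56.5% and miR-106b-3p 63.6%. The 3 members of lowest GC content had the 3 highest log2FC for NAc vs. IL (1.26, 1.57 and 0.69), while miR-93-3p, at 56.5% GC, had 0.49. The slope on GC per 10% was -0.88 to 0.20 in the 12 NAc libraries and 0.05 to 0.62 in the 12 IL libraries.

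After a straight line on GC content was removed from each library, a correction chosen after the data were seen, only part of the order stayed. miR-106b-5p was still higher in the NAc, at 0.72 against the IL (standard error 0.16, adjusted p = 0.000181) and 0.59 against the PL (standard error 0.15, adjusted p = 0.00145). miR-20a-5p no longer passed in any pair (0.10, -0.15 and -0.25 for NAc vs. IL, NAc vs. PL and IL vs. PL). miR-17-5p lost the call for NAc vs. IL (0.22, adjusted p = 0.128) and kept that for IL vs. PL (-0.46, standard error 0.13, adjusted p = 0.0257).

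For the NAc against the cortical regions, miR-106b-3p and miR-93-3p moved the other way under that correction. The remaining 3p arm, miR-17-1-3p, changed little, from -0.27 to -0.20 for NAc vs. IL and from -0.29 to -0.30 for NAc vs. PL. miR-106b-3p turned from lower to higher in the NAc than in the IL (0.45, standard error 0.09, adjusted p = 4.38e-05), was higher than in the PL (0.50, adjusted p = 1.74e-05) and lost its IL vs. PL call (0.05, adjusted p = 0.764). miR-93-3p became called at 0.72 for NAc vs. IL (adjusted p = 0.0097) and 0.56 for NAc vs. PL (adjusted p = 0.0472), from 0.49 (adjusted p = 0.0875) and 0.48 (adjusted p = 0.11). Of the calls with the data as deposited, miR-106b-5p higher in the NAc than in either cortical region and miR-17-5p lower in the IL than in the PL were made both with and without the correction. The share of all miRNAs called after the correction is not given here, so calls kept or gained under it cannot be read as particular to the members. The correction removes any regional difference in GC content, whether of the tissue or of the libraries, and those cannot be told apart here.

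**Figure D4:**
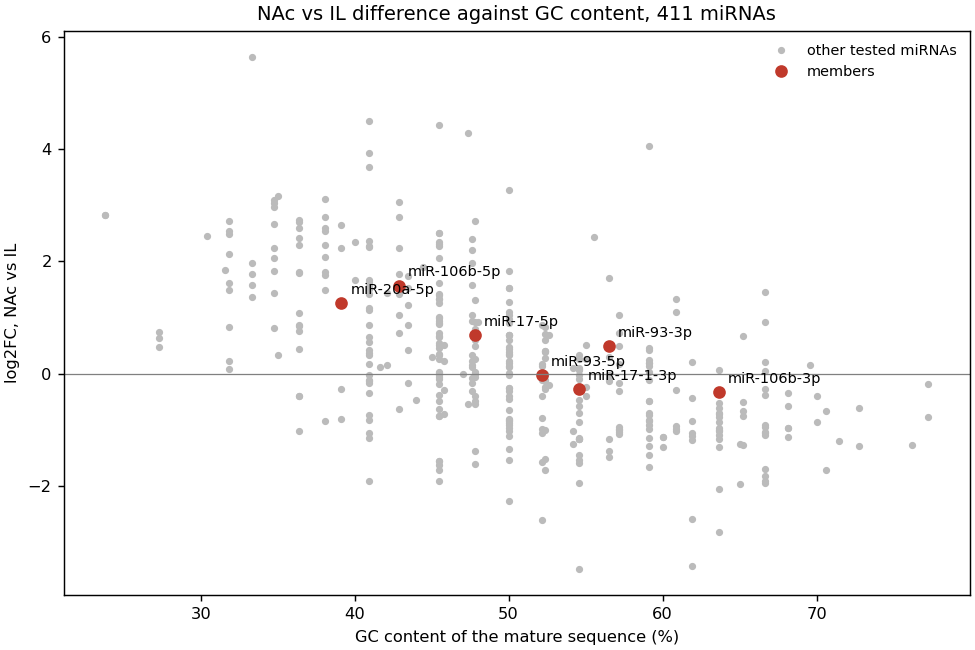
Difference between NAc and IL (log2FC from edgeR, vertical axis) against the GC content of the mature sequence (percent, horizontal axis) for 411 tested miRNAs, with the 7 members in red. The cloud slopes down (r = -0.58), with miR-20a-5p at 39.1% GC and 1.26, miR-93-3p at 56.5% and 0.49, and miR-106b-3p at 63.6% and -0.32.

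Cell markers also differed between the regions. The 2 endothelial miRNAs, miR-126a-3p and miR-126a-5p, both detected in all 36 libraries, summed to 1335 to 9087 CPM in the NAc, 730 to 5524 in the PL and 816 to 3063 in the IL. The oligodendrocyte miR-338-3p, the 1 of 3 listed that is in the table under its listed name, was at 13.5 to 70.5 CPM in the NAc, 2.69 to 21.1 in the PL and 2.76 to 12.4 in the IL. The 4 immune miRNAs summed to 278 to 474 CPM in the NAc and 410 to 879 in the IL, nearly all of it miR-150-5p. The other 3 had higher medians in the NAc than in the IL, miR-142-5p at 2.12 and 0.57 CPM, miR-142-3p at 0.299 and 0.177, and miR-223-3p at 0.207 and 0.0454. The 6 choroid plexus and ciliated cell miRNAs summed to 1473 to 2541 CPM in the NAc and 1027 to 2487 in the IL. Most of that sum was miR-204-5p, with medians of 2029 and 1319 CPM. The 3 of 4 blood miRNAs in the table summed to at most 3.23 CPM in any library. The 3 neuronal miRNAs went different ways between the NAc and the IL. Medians were 58515 and 18926 CPM for miR-9a-5p, 4061 and 6475 for miR-124-3p, and 202494 and 264493 for miR-128-3p. The endothelial sum was nearly all miR-126a-3p, with a median in the NAc of 5004 CPM beside 14.3 for miR-126a-5p. Marker levels were not corrected for GC content, which is 45.45% in miR-126a-3p and 38.1% in miR-126a-5p. It is 39.1% in miR-338-3p, 34.8% in miR-9a-5p and 47.6% in miR-128-3p. The part of these cells in the region differences, and of GC in the marker differences, was not tested.

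The arms of a hairpin were compared within libraries, where the scaling cancels. Across 6 ratios and 3 pairs of regions, 18 tests in all, chosen after the levels had been seen, p-values were from exact two-sided sign-flip permutation tests over the 12 rats with Benjamini-Hochberg adjustment. miR-106b was dominated by its 3p arm, in all 36 libraries and by a wide margin. The median excess of 3p over 5p was 74.1-fold in the IL (39.9 to 200), 63.4-fold in the PL (20.9 to 116) and 24.4-fold in the NAc (12.3 to 48.5). The other hairpins had the opposite bias: miR-93-5p exceeded miR-93-3p by a median of 44.0-fold, 36.1-fold and 26.3-fold in the IL, PL and NAc, and miR-17-5p exceeded miR-17-1-3p by 12.97-fold, 18.2-fold and 25.6-fold. A ratio of counts is not a ratio of molecules, since sequences can be captured unequally.

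The log2 ratio of miR-106b-5p to miR-106b-3p was -4.49 ± 0.55 in the NAc, -5.74 ± 0.82 in the PL and -6.45 ± 0.82 in the IL (SD, n = 12). It was higher in the NAc than in the IL in 12 of 12 rats, by 1.96 ± 0.61 (exact p = 0.000488, adjusted p = 0.00293), and higher than in the PL in 10 of 12, by 1.25 ± 0.96 (exact p = 0.00195, adjusted p = 0.00586). The arms differ in GC content by the width given above, and after the GC correction these differences were 0.31 ± 0.65 (exact p = 0.128) and 0.18 ± 0.54 (exact p = 0.287). The call was thus lost. For IL minus PL the ratio was -0.71 ± 1.22 (exact p = 0.0659), under 0.05 only when abstinence rat 3, naïve rat 1 or naïve rat 2 was left out (exact p = 0.0371, 0.043 and 0.0215).

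For miR-93 the arms are closer in GC content, and the log2 ratio of 5p to 3p was lower in the NAc with and without the correction. It was 4.74 ± 0.26 in the NAc, 5.30 ± 0.50 in the PL and 5.33 ± 0.52 in the IL (SD, n = 12). The difference from the IL was -0.59 ± 0.57 (lower in 10 of 12 rats, exact p = 0.00781, adjusted p = 0.0176), and -0.93 ± 0.57 after correction (exact p = 0.000977, adjusted p = 0.00352). The difference from the PL was -0.56 ± 0.46 (exact p = 0.00293, adjusted p = 0.00753), and -0.78 ± 0.48 after correction (exact p = 0.000488, adjusted p = 0.00293).

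Some ratios between members of one hairpin cluster differed between regions, and others did not or changed with the GC correction. miR-106b-5p and miR-93-5p are both processed from the Mcm7 cluster, and their log2 ratio was 1.65 ± 0.65 higher in the NAc than in the IL (12 of 12 rats, exact p = 0.000488, adjusted p = 0.00293) and 0.91 ± 0.48 higher after GC correction (12 of 12 rats, the same exact p). The log2 ratio of miR-106b-3p to miR-93-5p, of the same cluster, reversed for NAc minus IL. It was -0.32 ± 0.38 (exact p = 0.0151), and 0.60 ± 0.64 after correction (exact p = 0.0107). For NAc minus PL it was 0.09 ± 0.35 (exact p = 0.364), and 0.69 ± 0.37 after correction (exact p = 0.000488). For IL minus PL it was 0.41 ± 0.57 (exact p = 0.0298), and 0.09 ± 0.58 after correction (exact p = 0.598). The log2 ratio of miR-20a-5p to miR-17-5p was 0.55 ± 0.43 higher in the NAc than in the IL (11 of 12 rats, exact p = 0.000977, adjusted p = 0.00352), and -0.14 ± 0.39 after correction (exact p = 0.237). For IL minus PL this ratio was -0.02 ± 0.26 (exact p = 0.759), and 0.22 ± 0.28 after correction (exact p = 0.0132). That of miR-106b-5p to miR-93-5p was -0.30 ± 0.99 there (exact p = 0.306). Between groups, the ratio of the miR-106b arms reached no exact p under 0.05 in 9 comparisons, the lowest being 0.0857 for withdrawal vs. naïve in the IL, with a difference of -1.14.

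**Figure D5:**
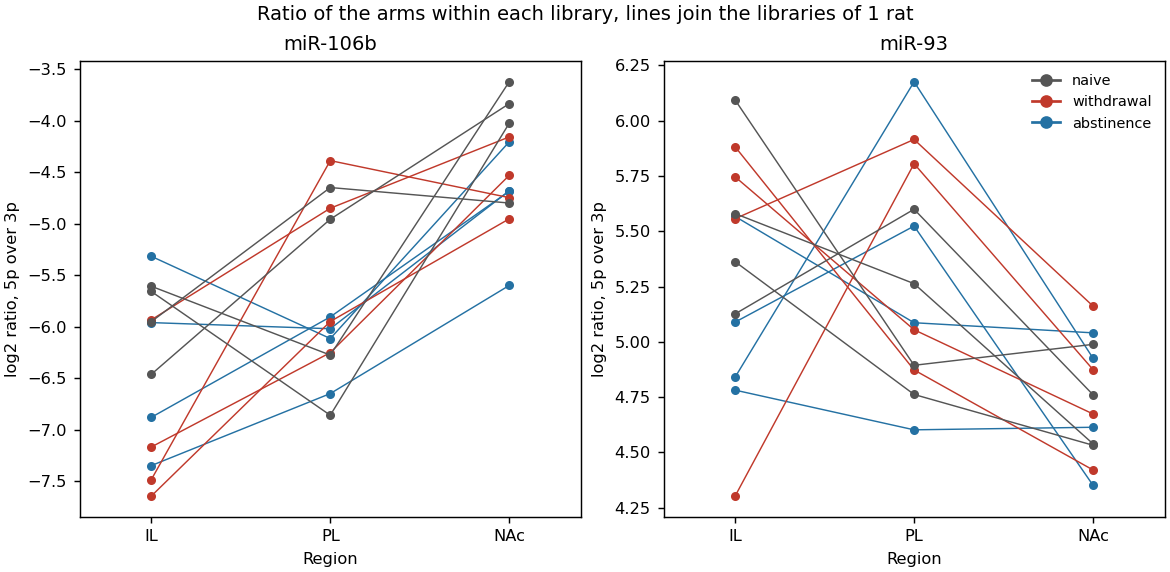
Log2 ratio of 5p to 3p counts (vertical axes) of miR-106b and miR-93 in the IL, PL and NAc (horizontal axes), where each line joins the 3 libraries of 1 rat, coloured by group. miR-106b rises from IL to NAc in 12 of 12 rats and stays below 0, so that 3p exceeds 5p throughout, while miR-93 stays above 0.

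Of 14 further rows from the same hairpin clusters, 6 passed the filter, and 1, miR-25-5p, was called between groups, in 2 comparisons. This less abundant arm of the hairpin beside miR-93 was at 3.07 ± 0.53 log2 CPM in the IL of abstinence rats and 2.01 ± 0.20 in naïve rats (SD, n = 4 each), without overlap (exact permutation p = 0.0286, the smallest possible). In that comparison 8.32% of all 457 miRNAs were called and 7% did not overlap. The study also listed miR-25-5p as higher in the IL of abstinence than of naïve rats. Its log2FC there was 1.01 (standard error 0.34, adjusted p = 0.287) and in the NAc 0.72 (standard error 0.34, adjusted p = 0.887), where it also passed the rule, as 1.09% of all miRNAs did, with overlapping groups. After the GC correction these were 0.84 (adjusted p = 0.131) and 0.44 (adjusted p = 0.999), and the second was no longer a call. Groups did not overlap in 2 other comparisons that were no calls: miR-25-5p for withdrawal vs. naïve in the IL (0.47, adjusted p = 0.548) and miR-25-3p for abstinence vs. naïve in the NAc (-0.26, adjusted p = 0.888), where 7.44% and 1.75% of all miRNAs did not overlap. miR-25-3p, the main arm, had a log2FC of -0.54 in the IL of abstinence rats (standard error 0.25, adjusted p = 0.426), a fold-change under 1.5.

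The most expressed neighbours differed between regions. miR-92a-3p was lower in the NAc than in the IL by a log2FC of -0.94 (standard error 0.14, adjusted p = 1.49e-06) and stayed so after GC correction (-0.68, adjusted p = 1.8e-05). miR-25-3p had 0.44 for NAc vs. IL (adjusted p = 0.00134) and 0.13 after correction (adjusted p = 0.284), and miR-25-5p -0.77 (adjusted p = 0.00101) and -0.02 (adjusted p = 0.92). miR-363-3p, from the X chromosome cluster and near its detection limit, had 1.51 (adjusted p = 1.84e-05) and 0.66 (adjusted p = 0.023).

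Across the 36 libraries the miRNAs of most similar level were sought among those with a mean of at least 2 log2 CPM, by Pearson r of log2 CPM, as a description in libraries that share depth and GC bias. miR-17-5p was closest to miR-20a-5p (0.88), miR-186-5p (0.83) and miR-872-3p (0.81). miR-20a-5p was closest to miR-26b-5p (0.92), miR-374-5p (0.92) and miR-186-5p (0.91), and miR-106b-5p to miR-379-3p, miR-30c-5p and miR-30b-5p (0.93 each). miR-93-5p was closest to miR-23b-3p (0.80), miR-31a-5p (0.79) and miR-221-3p (0.78).

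Among the members, deviations from the mean of each group and region were most alike for miR-17-5p and miR-20a-5p (r = 0.82), which share a cluster, and for both arms of miR-93 (0.81). miR-106b-5p and miR-20a-5p, from different clusters, had an r of 0.79. The arms of miR-106b deviated in opposite directions (r = -0.66), and miR-93-5p and miR-106b-3p, of one cluster, had an r of 0.02. These deviations were not corrected for GC content. Its slope varied within groups, as from -0.57 to 0.20 in the NAc of abstinence rats. The arms of miR-106b have 42.9% and 63.6% GC, and the part of GC in these r values was not tested.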

How the data were processed

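Small RNA was sequenced from 36 libraries. The authors deposited raw counts per mature miRNA, made with the CAP-miRseq workflow (version not given in the sources used here); the methods name the assembly rn6 and the submitters' processing notes mRatBN7.2 and rn7. Rats were tied to libraries by the study's list of RNA samples for 35 libraries and by the design for 1, and rat numbers are only names. Members, lists and tests were chosen with earlier results of these data known. The filter (filterByExpr, minimum count 10, total 15) kept 457 miRNAs. TMM scaling and edgeR 4.0.16 quasi-likelihood tests followed, with 1 mean per group and region and RIN as a covariate, or with the rat as a fixed block between regions, since all 3 regions came from each rat (consensus correlation of 1 rat's libraries 0.117). Standard errors given with edgeR were derived, as the absolute log2FC over the square root of the F statistic of its test. Log2 CPM used a prior count of 0.5. Counting and mapping cover mature names only, and closely related reads can be split. Members with an unadjusted p under 0.05, the 4 main 5p members and those at the ends of a comparison's range are given with values. DESeq2 1.42.0, limma 3.58.1, RLE factors, no filter, no RIN, single regions, no replicate block and omitted rats were tried, and, after seeing the data, a GC correction and omission of libraries of a RIN under 8. The scripts were tested on simulated data.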

Additional observations from a re-analysis of the deposited data

Results flagged for a closer look

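In 63 groups of 4 rats (7 members, 3 regions, 3 treatments), Dixon's test at its 95% value set 4 rats apart from the rest of their group; chance gives about 1 in 20 groups. miR-106b-5p in the IL had such a rat in 2 groups: the highest withdrawal rat was at 1.97 log2 CPM with the next at 0.64, and the lowest naïve rat at 1.26 with the next at 1.95. miR-106b-3p in the NAc of naïve rats had a highest value of 7.70, with the next at 7.37. miR-93-3p in the IL of abstinence rats had a lowest value of 0.74, with the next at 2.02; that library came from the rat whose IL and PL RNA had a RIN under 8.

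The log2FC of miR-106b-5p from withdrawal to abstinence was 1.23 higher in the IL than in the PL (standard error 0.49, adjusted p = 0.965 over all miRNAs by edgeR). The IL and PL libraries came from the same rats, and this fit had no term for the rat. The difference was the only 1 with an unadjusted p under 0.05 among 63 such tests over the members, a smaller share than the 1 in 20 that chance gives. It was 0.97 after GC correction, still under that threshold, and missed it without withdrawal rat 2 (0.96) and without abstinence rat 4 (1.01).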

How the results depend on the processing

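Members called between groups were 0 in each comparison of the main fit. For the other settings the share of all miRNAs called is not given here, so their calls cannot be read as particular to the members. Under limma-voom, alone or with the rat as a random replicate block, 1 member (miR-106b-5p) was called for withdrawal vs. naïve and 1 for abstinence vs. withdrawal in the IL; without RIN it was 1 for withdrawal vs. naïve in the IL and 1 for abstinence vs. withdrawal in the PL. With libraries of the region alone 1 (miR-93-3p) was called for abstinence vs. naïve in the IL, and without libraries of a RIN under 8 it was 1 (miR-17-1-3p) for withdrawal vs. naïve in the IL. With no filter the calls in the IL were 1, 1 and 3, all of members the filter removes. Omitting a rat gave 0 to 1 calls in the IL and PL and 0 in the NAc. Between regions the naïve rats alone gave 0 calls for IL vs. PL (fewer samples) and the GC correction 1, against 3; omitting a rat gave 2 for NAc vs. PL, 4 to 5 for NAc vs. IL and 3 to 4 for IL vs. PL, and leaving out the rat block changed no count by over 1.5 times. The GC correction reversed miR-106b-3p for NAc vs. IL (0.45) and miR-20a-5p for NAc vs. PL (-0.15); miR-106b-3p for NAc vs. PL, uncalled at 0.05, was -0.0888 in naïve rats alone and -0.0161 to 0.0926 when a rat was omitted. The GC correction also ended the calls on the miR-106b arm ratio (0.18 for NAc minus PL, 0.31 for NAc minus IL). That ratio ran from 1.11 to 1.40, from 1.89 to 2.04 and, for IL minus PL, from -0.89 to -0.49 when a rat was omitted. The cause of these changes was not tested. Counts of 12 to 43 for miR-106b-5p in the IL limit its precision.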
